A study of Mus musculus with 8 samples.

Results

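A set of 10 genes of the machinery through which MLL fusion proteins act was followed in mouse MLL-AF9 cells: Kmt2a, Men1, Psip1, Dot1l, Mllt1, Mllt3, Mllt10, Aff1, Aff4 and Cdk9. They were taken by gene symbol from the platform annotation, using probe sets with a single symbol and, where a gene had more than 1, the brightest of them. All 10 genes were found, among 19938 genes measured. Aff1 had a second probe set and the other genes had 1 each. The measurement is the probe-set level on the log2 scale, and a level is compared only within a gene, because probe sets differ in how strongly they hybridise.

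Cultures labelled Runx1Cbfb-KO received 1 µM 4-hydroxytamoxifen (4OHT) and the Control cultures received ethanol, each for 24 h. Every culture, Control included, descended from c-Kit(+) bone marrow of mice with floxed Runx1 and Cbfb, and carried MLL-AF9 and the 4OHT-activated recombinase CreERT2 with a puromycin marker. RUNX1 is a transcription factor that blood formation needs, and CBFB is the partner protein that strengthens its hold on DNA. Each group held 4 cultures grown in M3434 cytokine-enriched methylcellulose, 2 biological replicates of each of 2 clones, and the Runx1Cbfb-KO and Control cultures that share clone and number form a set. No 4OHT-treated culture lacking the floxed genes was analysed here, so deletion and the agent itself cannot be told apart, and the results cover 2 clones of transformed cells.

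MLL, the product of Kmt2a, is a histone H3 lysine methyltransferase that keeps Hox genes active in blood progenitors. In leukaemia its amino-terminal part is fused to a partner such as AF9, the product of Mllt3. The fusion protein reaches chromatin with menin (Men1) and LEDGF (Psip1), and its partner portion brings in the super elongation complex, with AFF scaffolds and the kinase CDK9, and the DOT1L methyltransferase, with AF10 (Mllt10). ENL (Mllt1) is the close relative of AF9 and binds acetylated histones through the same kind of domain.

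Stretches before the gene start, as far as they lie outside the annotated gene, are shown for Kmt2a and Mllt3, the genes joined in the fusion, and for Men1, whose stretch holds fewer CG pairs. The MLL protein binds unmethylated CG pairs through its CXXC domain, and CG pairs are in capitals. The sequences are from RefSeq, build GRCm38.p6, read 5′ to 3′ on the gene's strand. That of Kmt2a is chr9:44881353-44881539 on the minus strand, that of Mllt3 is chr4:88033408-88033657 on the minus strand and that of Men1 is chr19:6334729-6334978 on the plus strand.
Kmt2a: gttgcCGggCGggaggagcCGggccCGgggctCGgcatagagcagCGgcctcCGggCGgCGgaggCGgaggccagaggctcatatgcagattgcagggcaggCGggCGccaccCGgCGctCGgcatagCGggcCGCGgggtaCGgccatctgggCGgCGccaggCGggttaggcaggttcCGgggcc
Mllt3: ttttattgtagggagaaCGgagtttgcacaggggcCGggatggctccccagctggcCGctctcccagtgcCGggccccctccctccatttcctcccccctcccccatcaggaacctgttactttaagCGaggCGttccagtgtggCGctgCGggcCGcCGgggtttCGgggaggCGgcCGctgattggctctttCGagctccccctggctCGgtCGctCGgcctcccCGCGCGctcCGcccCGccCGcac
Men1: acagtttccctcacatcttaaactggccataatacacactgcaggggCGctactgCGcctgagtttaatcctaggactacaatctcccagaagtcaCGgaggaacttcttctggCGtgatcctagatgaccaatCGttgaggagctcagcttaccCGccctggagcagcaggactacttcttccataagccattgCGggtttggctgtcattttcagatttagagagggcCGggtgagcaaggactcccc
They hold 23 CG pairs in 187 bases for Kmt2a, 23 in 250 bases for Mllt3 and 8 in 250 bases for Men1.

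RefSeq start sites were matched by symbol for 9 of the 10 genes, all but Psip1, with 15 windows of 250 bases before a start in all, since several genes have more than 1 start. Of these 15 windows, 9 held 20 or more CG pairs, as did 17.9% of the 32851 windows of all genes. Median GC content was 69.2% in the windows of these genes and 52.4% in all windows. TGTGGT on either strand, a form of the RUNX core motif, occurred in 1 of the 15 windows, against 14.0% of all windows. The match is in the Mllt10 stretch below, chr2:18055581-18055610 on the plus strand. The motif, in capitals, starts at position -135 from 1 of the listed starts. Unlike the stretches above, this one lies inside the annotated gene, which runs from 18055160 to 18212390. The match of 6 letters is a description of the sequence only, and other forms of the motif were not searched.
Mllt10: aataataaaggcTGTGGTgacgaatctgca

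The targeted genes were read first. Runx1 signal was 10.58, 10.65, 10.87 and 11.19 in the arrays labelled Runx1Cbfb-KO, against 10.05, 10.12, 10.31 and 10.71 in Control arrays, in the order clone 1 replicate 1, clone 1 replicate 2, clone 2 replicate 1 and clone 2 replicate 2, which is kept below. It was higher, not lower, in every set (0.52 ± 0.04 on the log2 scale, SE over 4 sets; adjusted p = 1.64e-05 by limma), and the call ended in the fit without the set as a block (adjusted p = 1). Cbfb was lower in every set, at -0.21, -0.08, -0.17 and -0.27 (-0.18 ± 0.05, SE over 4 sets, 95% interval -0.28 to -0.08). It did not pass after adjustment over all genes (limma adjusted p = 0.128). A whole-transcript probe set averages probes along the gene and those outside a deleted exon cannot report its loss. The Runx1 values thus ran against the label but leave the deletion unchecked, and every direction below rests on the labels. Array medians lay between 6.26 and 6.39, and arrays of the same clone correlated at 0.991 to 0.997.

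The averaged level of 14 myeloid progenitor markers ran from 10.36 to 10.69 in the arrays labelled Runx1Cbfb-KO and from 10.46 to 10.74 in Control arrays. Of these markers 1 rose, Csf3r, at 0.27 ± 0.05 (SE over 4 sets, adjusted p = 0.0302 by limma). The 6 that fell included the stem cell factor receptor gene Kit at -0.36 ± 0.05 (SE over 4 sets, adjusted p = 0.00404 by limma). The others that fell were Cebpa at -0.66 ± 0.08, Ms4a3 at -0.81 ± 0.17, Itgam at -0.29 ± 0.06, Spi1 at -0.14 ± 0.03 and the granule gene Prtn3 at -0.15 ± 0.03. The granule genes Mpo, Elane and Ctsg did not pass. Ms4a3 and Spi1 passed narrowly (limma adjusted p = 0.0484 and 0.0465), and no gene of the series passed in the fit without the set as a block. How far the shift of these markers bears on the values below was not tested. The averaged level of 6 T cell markers ran from 5.34 to 5.65 in the arrays labelled Runx1Cbfb-KO and from 5.41 to 5.57 in Control arrays. Averages hide single genes: over the 8 arrays the progenitor marker Cd34 ran from 5.58 to 11.57. Its difference between the groups was -0.01 ± 0.06 (SE over 4 sets), so most of that spread lay between the sets. The B cell marker Cd79b ran from 6.33 to 9.69, with a difference between the groups of -0.01 ± 0.07. The basophil marker Mcpt8 ran from 7.78 to 8.87, with a difference of -0.24 ± 0.07 (SE over 4 sets). None of the T cell, B cell, erythroid, megakaryocyte, mast cell or basophil markers passed in the comparison. In RNA from whole cultures, fewer cells of a type and less RNA per cell cannot be told apart.

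None of the 10 genes passed in the comparison of cultures labelled Runx1Cbfb-KO with Control cultures (limma with the set as a block, Benjamini-Hochberg adjustment over all genes, threshold 0.05). Over all genes 0.953% passed, 190 of 19938, and at an unadjusted p under 0.05 the count was 0 of 10 genes, against 6.47% of all genes. Changes ran from 0.948-fold for Aff1 to 1.06-fold for Mllt3. The 95% intervals of the 10 genes together spanned log2 differences of -0.16 to 0.22, that is 0.893-fold to 1.16-fold. These intervals bound the differences and do not show that they were 0. The median log2 difference was 0.02 over the 10 genes, 6 above 0 and 4 below, and 0.00 over all genes. The ranges of the groups overlapped for each of the 10 genes. They did not overlap for 1.17% of all genes, a share at which this count says little about these genes. Ranges also pool the clones and leave out the pairing: those of Runx1 overlapped too, although it was higher in every set.

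**Figure D1:**
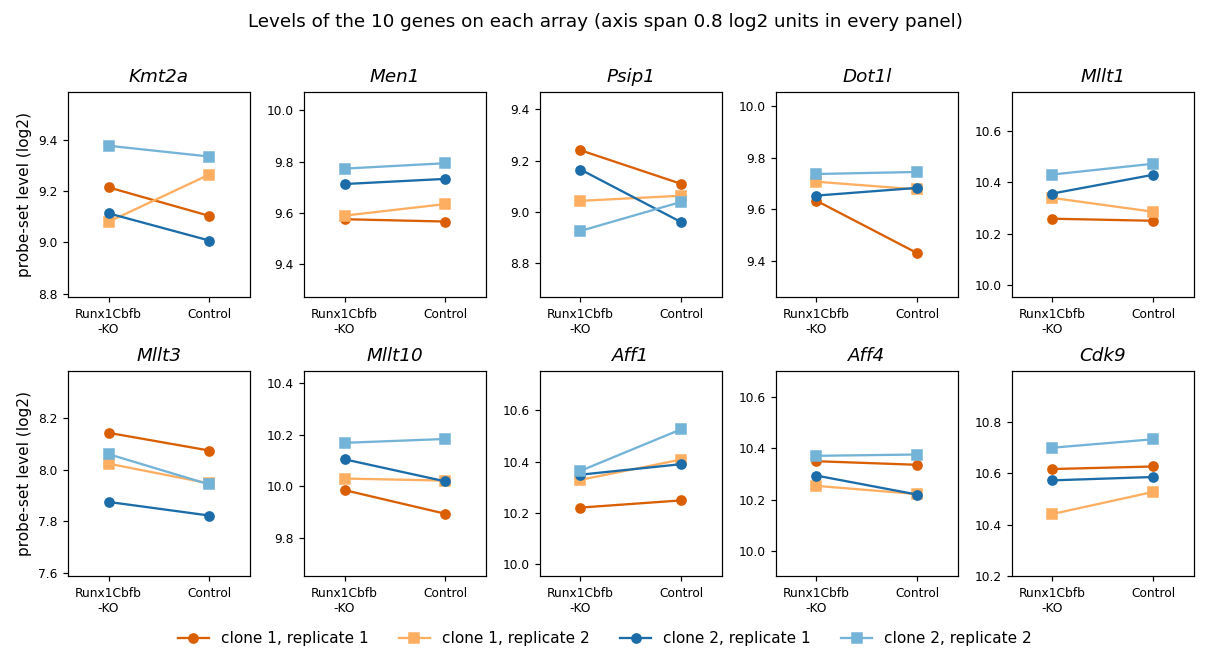
Probe-set level (log2, y axis, each panel spanning 0.8 units) of each gene in the arrays labelled Runx1Cbfb-KO (left) and Control arrays (right), with a line joining the cultures of a set. The levels of the groups overlap in all 10 panels.

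The fusion's own components come first. Kmt2a, the gene of the methyltransferase, had levels of 9.21, 9.08, 9.11 and 9.38 in the arrays labelled Runx1Cbfb-KO, against 9.10, 9.26, 9.01 and 9.33 in Control arrays. Its sets disagreed, being higher in 3 and lower in clone 1 replicate 2 by 0.18, and the group ranges overlapped (0.02 ± 0.06 on the log2 scale, SE over 4 sets; 95% interval -0.11 to 0.15; adjusted p = 1 by limma). Mllt3, the AF9 gene, had levels of 8.14, 8.02, 7.88 and 8.06 in the arrays labelled Runx1Cbfb-KO, against 8.07, 7.95, 7.82 and 7.94 in Control arrays. It was above its Control in all 4 sets, by 0.07, 0.08, 0.05 and 0.12, while the group ranges overlapped, and it did not pass (0.08 ± 0.06 on the log2 scale, SE over 4 sets; 95% interval -0.06 to 0.22; adjusted p = 1 by limma). Mllt3 averaged 8.03 ± 0.11 in the arrays labelled Runx1Cbfb-KO and 7.95 ± 0.10 in Control arrays (SD, n = 4 each). Of all genes, 13.1% had the same sign in all 4 sets, and so did 3 of the 10: Mllt3, Aff1 and Cdk9. All cultures carried the fusion transgene, whose sequence joins parts of these genes. Its signal and that of the cells' own Kmt2a and Mllt3 were not separated here.

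Among the chromatin tethers, Men1, the menin gene, had levels of 9.58, 9.59, 9.71 and 9.77 in the arrays labelled Runx1Cbfb-KO, against 9.57, 9.63, 9.73 and 9.79 in Control arrays. The set differences stayed between -0.05 and 0.01, with an SD of 0.02 over the sets (-0.02 ± 0.04 on the log2 scale, SE over 4 sets; 95% interval -0.12 to 0.08; adjusted p = 1 by limma). Psip1, the gene of the chromatin reader LEDGF, had levels of 9.24, 9.04, 9.16 and 8.93 in the arrays labelled Runx1Cbfb-KO, against 9.11, 9.06, 8.96 and 9.04 in Control arrays. Its sets pulled apart, at -0.02 and -0.11 in the sets of replicate number 2, and at 0.13 and 0.20 in those of replicate number 1 (0.05 ± 0.06 on the log2 scale, SE over 4 sets; 95% interval -0.08 to 0.18; adjusted p = 1 by limma). The Psip1 spread between cultures was wider in the arrays labelled Runx1Cbfb-KO, with an SD of 0.14, than in Control arrays, with 0.06 (n = 4 each). Cdk9 and Mllt3 ran the same way. The other genes of the 10 ran the opposite way, Dot1l the furthest, with 0.05 in the arrays labelled Runx1Cbfb-KO and 0.14 in Control arrays. These spreads were not tested.

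The DOT1L arm comprised Dot1l and Mllt10. Dot1l, which encodes the methyltransferase of the histone H3 core, had levels of 9.63, 9.71, 9.65 and 9.74 in the arrays labelled Runx1Cbfb-KO, against 9.43, 9.68, 9.68 and 9.74 in Control arrays. The clone 1 replicate 1 Control culture was the lowest of the 8, and that set alone gave 0.20 while the other sets lay between -0.03 and 0.03 (0.05 ± 0.05 on the log2 scale, SE over 4 sets; 95% interval -0.06 to 0.16; adjusted p = 1 by limma). Without that set the Dot1l difference was -0.003. Mllt10, whose AF10 product binds DOT1L, had levels of 9.98, 10.03, 10.11 and 10.17 in the arrays labelled Runx1Cbfb-KO, against 9.89, 10.02, 10.02 and 10.18 in Control arrays. It was above its Control in 3 sets and its group ranges overlapped (0.04 ± 0.04 on the log2 scale, SE over 4 sets; 95% interval -0.05 to 0.13; adjusted p = 1 by limma).

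In the elongation arm, Mllt1, the ENL gene, had levels of 10.26, 10.34, 10.36 and 10.43 in the arrays labelled Runx1Cbfb-KO, against 10.25, 10.29, 10.43 and 10.47 in Control arrays. The clone 2 sets were at -0.07 and -0.04 and the clone 1 sets at 0.01 and 0.05 (-0.01 ± 0.04 on the log2 scale, SE over 4 sets; 95% interval -0.10 to 0.07; adjusted p = 1 by limma). Aff1, which encodes the scaffold AF4, had levels of 10.22, 10.33, 10.35 and 10.36 in the arrays labelled Runx1Cbfb-KO, against 10.25, 10.41, 10.39 and 10.53 in Control arrays. It was below its Control in 4 of 4 sets, by amounts between 0.03 and 0.16, and had the smallest p of the 10 genes, unadjusted 0.0736 (-0.08 ± 0.04 on the log2 scale, SE over 4 sets; 95% interval -0.16 to 0.01; adjusted p = 0.889 by limma). Aff1 averaged 10.32 ± 0.07 in the arrays labelled Runx1Cbfb-KO and 10.39 ± 0.11 in Control arrays (SD, n = 4 each). The second Aff1 probe set had levels of 8.37, 8.22, 8.26 and 8.09 in the arrays labelled Runx1Cbfb-KO, against 8.31, 8.36, 8.16 and 8.50 in Control arrays. That probe set did not repeat the even sign, being below Control in both sets of replicate number 2 and above in the others (-0.101 ± 0.095 on the log2 scale, SE over 4 sets; adjusted p = 1 by limma, over all probe sets).

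Aff4, the main scaffold of the super elongation complex, had levels of 10.35, 10.25, 10.29 and 10.37 in the arrays labelled Runx1Cbfb-KO, against 10.34, 10.22, 10.22 and 10.38 in Control arrays. Its set differences ran from -0.01 to 0.07 (0.03 ± 0.04 on the log2 scale, SE over 4 sets; 95% interval -0.06 to 0.11; adjusted p = 1 by limma). Cdk9, the kinase of P-TEFb that releases paused RNA polymerase II, had levels of 10.62, 10.44, 10.57 and 10.70 in the arrays labelled Runx1Cbfb-KO, against 10.63, 10.53, 10.59 and 10.73 in Control arrays. It was below its Control in 4 of 4 sets, although in 3 of them by less than 0.04 (-0.04 ± 0.04 on the log2 scale, SE over 4 sets; 95% interval -0.11 to 0.04; adjusted p = 1 by limma). The moderated SEs of the 10 genes lay between 0.04 and 0.06, against a median of 0.07 over all genes.

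**Figure D2:**
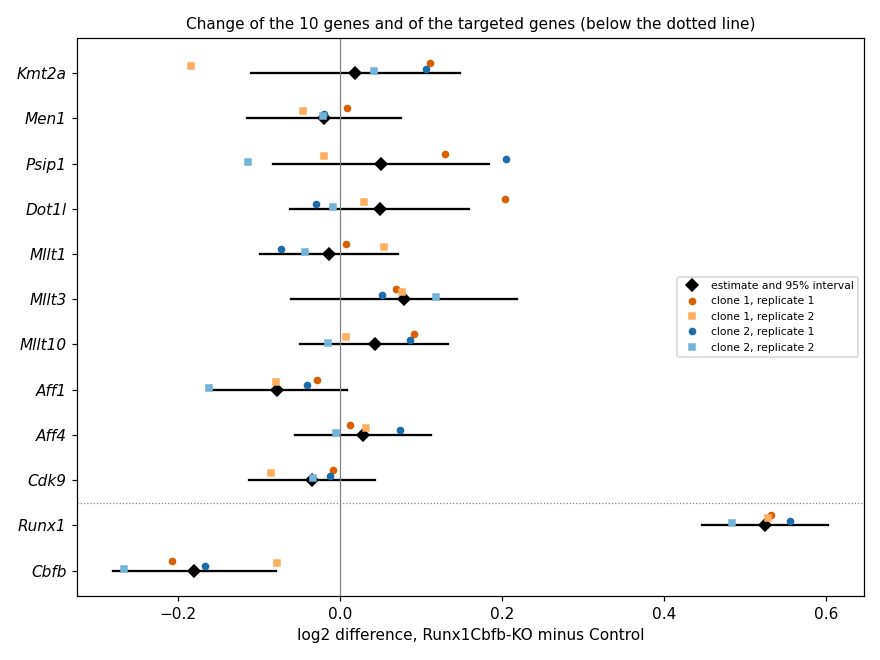
Log2 difference, Runx1Cbfb-KO minus Control (x axis), of the 10 genes and, below the dotted line, of the targeted genes. Diamonds and bars are the limma estimate with its 95% interval and small symbols the 4 set differences. All 10 intervals include 0, while that of Runx1 runs from 0.45 to 0.60 and that of Cbfb from -0.28 to -0.08.

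The change was next taken apart by clone. None of the 10 genes passed in clone 1, where 0.181% of all genes did, in clone 2, where 0.682% did, or in the difference between the clones' effects, where 0.01% did (limma, an effect per clone). At an unadjusted p under 0.05 the count was also 0 of 10 in each, against 3.64% of all genes in clone 1, 5.17% in clone 2 and 1.97% in the difference, shares at which a count of 0 says little about these genes. Mllt1 was at -0.06 ± 0.06 in clone 2 and 0.03 ± 0.06 in clone 1, and Dot1l at -0.02 ± 0.07 in clone 2 and 0.12 ± 0.07 in clone 1 (SE, n = 2 sets each). The difference between clones was -0.14 ± 0.10 for Dot1l, the largest in size among the 10 genes, and 0.11 ± 0.12 for Kmt2a.

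By replicate number, a split made after the data were seen, 0 of 10 genes passed in the sets of number 2 (0.828% of all genes) and 0 of 10 in those of number 1 (0.963% of all genes; limma, an effect per number). The difference between the numbers' effects was called for 0% of all genes and none of the 10, while at an unadjusted p under 0.05 the counts were 18.0% of all genes and 1 of the 10, Psip1. Its effect was -0.07 ± 0.07 in number 2 and 0.17 ± 0.07 in number 1 (SE, n = 2 sets each; limma adjusted p of the difference = 0.24). The median over the 10 genes was -0.02 in number 2 and 0.05 in number 1, while over all genes it was 0.01 in number 2 and -0.01 in number 1. At an unadjusted p under 0.05, 1 of the 10 genes stood in each number, Aff1 at -0.12 ± 0.05 in number 2, against 13.5% of all genes, and Psip1 in number 1, against 14.0%. The titles call the numbers biological replicates and do not tie them to the study's 2 experiments.

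The clones themselves were then compared among Control arrays, clone 2 over clone 1. None of the 10 genes passed, while 3.97% of all genes did (limma, 792 of 19938), and 1 of 10 had an unadjusted p under 0.05, against 12.3% of all genes. That gene was Mllt1, at 10.45 in clone 2 and 10.27 in clone 1 (0.183 ± 0.075 on the log2 scale, SE, n = 2 each; adjusted p = 0.327 by limma). Men1 was at 9.76 in clone 2 and 9.60 in clone 1, a log2 difference of 0.16 ± 0.08, and Dot1l was at 9.71 in clone 2 and 9.55 in clone 1, a difference of 0.16 ± 0.10. Over all 8 arrays, Men1 lay between 9.71 and 9.79 in clone 2 and between 9.57 and 9.64 in clone 1. Mllt1 likewise lay between 10.36 and 10.47 in clone 2 and between 10.25 and 10.34 in clone 1. Ranges of the clones did not overlap for these 2 of the 10 genes and for 19.7% of all genes. The smallest clone differences were those of Kmt2a, at -0.01 ± 0.13, and Aff4, at 0.02 ± 0.09.

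The rest of the machinery was read from 7 lists, 97 of whose 104 distinct genes had a probe set of their own. Of these 97, none rose and 2 fell (0.953% of all genes passed), and their median log2 difference was -0.002, against 0.00 over all genes. At an unadjusted p under 0.05, 5 of the 97 were higher and 8 lower, against 6.47% of all genes in both directions together. Of these, 3 higher and 3 lower were MLL fusion partner genes, and 2 higher and 2 lower were reported fusion targets. None of 15 subunits of MLL and related methyltransferase complexes passed (median -0.03, 13 of 15 below 0, against 9941 of 19938 over all genes). Over the 97 genes together the median was 0.055 and 0.035 in the sets of replicate number 1, and -0.025 and -0.084 in those of number 2. The median of the subunit list split the same way, at 0.04 and 0.01 in number 1, and -0.07 and -0.11 in number 2. In that list Wdr5, the shared scaffold subunit, had the smallest p, with levels of 10.31, 10.42, 10.32 and 10.28 in the arrays labelled Runx1Cbfb-KO, against 10.43, 10.40, 10.46 and 10.49 in Control arrays. Wdr5 was below its Control in 3 of 4 sets (-0.11 ± 0.04, SE over 4 sets; adjusted p = 0.544 by limma).

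None of 10 further members of the super elongation complex and DOT1L partners passed (median -0.002), and the cyclin T1 gene Ccnt1, whose product activates CDK9, was at -0.04 ± 0.05 (SE, n = 4 sets). None of 11 P-TEFb regulators and polymerase tail kinases passed (median 0.02), with Mepce, which caps and stabilises the small nuclear RNA that holds P-TEFb inactive, at -0.10 ± 0.06. None of 15 pausing and elongation factors passed (median -0.01), with Ctr9, a subunit of the PAF1 complex, at -0.13 ± 0.05 and below its Control in all 4 sets. None of 17 other chromatin cofactors passed (median -0.01), with the arginine methyltransferase gene Carm1 at -0.05 ± 0.03. By unadjusted p, these 4 lists held 0, 0, 2 and 0 genes and the complex subunits 1, all lower, against 6.47% of all genes in both directions together.

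Both genes that fell lay outside the core complexes. Among 15 genes known as MLL fusion partners in human leukaemia, Gas7, which encodes an actin-binding protein, had levels of 9.934, 9.802, 7.597 and 7.560 in the arrays labelled Runx1Cbfb-KO, against 10.095, 10.026, 8.001 and 7.979 in Control arrays. Gas7 was lower in every set (-0.30 ± 0.06, SE over 4 sets; adjusted p = 0.0379 by limma). Leaving out a set ended the call in 3 of 4 cases, with adjusted p = 0.0531 when clone 1 replicate 1 was dropped, 0.201 when clone 1 replicate 2 was and 0.187 when clone 2 replicate 1 was.

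Among 14 reported targets of MLL fusions, Bcl2, which blocks apoptosis, had levels of 8.41, 8.37, 8.73 and 8.78 in the arrays labelled Runx1Cbfb-KO, against 8.52, 8.74, 9.12 and 9.15 in Control arrays. It was lower in every set (-0.31 ± 0.06, SE over 4 sets; adjusted p = 0.0429 by limma). That call too was lost when clone 1 replicate 2 was dropped (adjusted p = 0.330) or clone 2 replicate 1 was (0.279). The other 13 targets did not pass (list median 0.03).

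**Figure D3:**
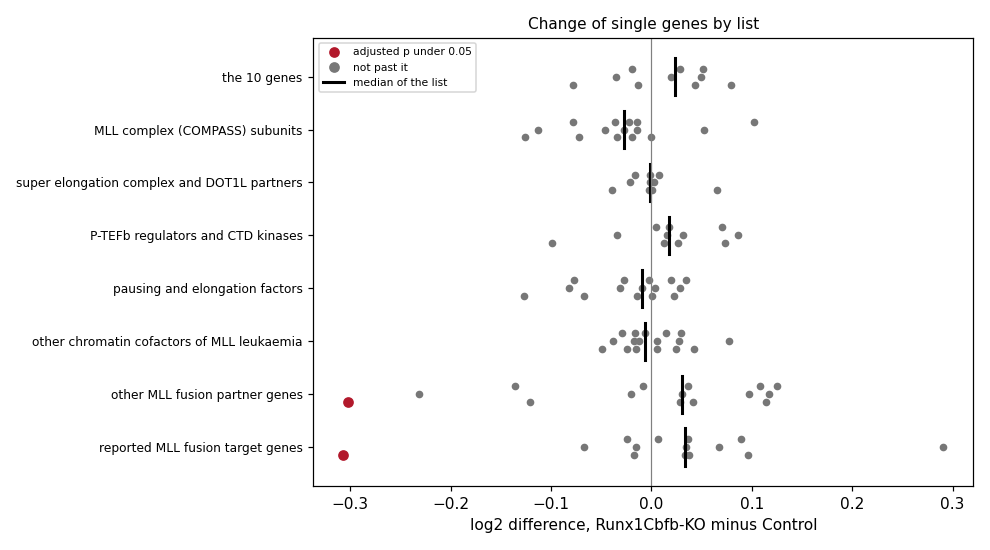
Log2 difference, Runx1Cbfb-KO minus Control (x axis), of every measured gene of the 10 and of 7 wider lists (rows), with red points past an adjusted p of 0.05 and a bar at each list's median. The 10 genes lie between -0.08 and 0.08, and the 2 red points are Gas7 and Bcl2.

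The same lists looked different between the clones among Control arrays. Of the 14 reported fusion targets, 7 passed, 6 higher and 1 lower in clone 2 (limma; 3.97% of all genes passed). Of the 15 complex subunits, 3 passed, 2 higher and 1 lower, and of the 15 partner genes 4 passed, 1 higher and 3 lower. The remaining 4 lists, like the 10 genes, had none. These list counts were read after the clone differences were seen, and no test of 1 list against another was made.

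The largest clone differences in these lists were those of Eya1 and Mef2c, named after their values were seen. Eya1, a transcriptional coactivator gene, was at 5.402 and 5.395 in clone 2 and at 11.008 and 10.997 in clone 1 in the arrays labelled Runx1Cbfb-KO. In Control arrays it was at 5.112 and 5.494 in clone 2 and at 11.002 and 11.045 in clone 1 (-5.72 ± 0.13 among Control arrays, SE, n = 2 each; adjusted p = 8.9e-09 by limma). No detection calls were used, so whether the clone 2 signal of Eya1 stood above background is unknown, and its difference may be understated. Mef2c, a transcription factor gene, ran the other way, with a mean of 10.61 in clone 2 and 8.15 in clone 1 in Control arrays (2.46 ± 0.11, SE, n = 2 each; adjusted p = 3.15e-07 by limma). Neither passed in the comparison of Runx1Cbfb-KO with Control, at 0.04 ± 0.07 for Eya1 and 0.07 ± 0.05 for Mef2c. Among complex subunits Kdm6a, an H3 demethylase gene, was at 10.18 in clone 2 and 9.49 in clone 1, and Kmt2c, a methyltransferase gene related to Kmt2a, was at 8.39 in clone 2 and 9.03 in clone 1.

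**Figure D4:**
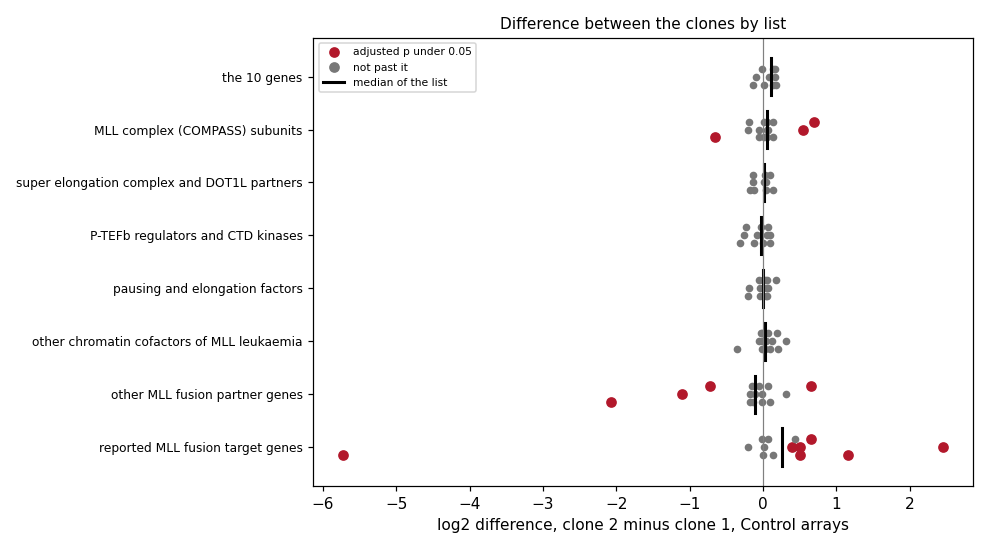
Log2 difference between clone 2 and clone 1 among Control arrays (x axis) for the same lists (rows), with red points past an adjusted p of 0.05. The 10 genes lie between -0.13 and 0.18, while 7 of the 14 reported fusion targets are red, from -5.72 for Eya1 to 2.46 for Mef2c.

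Across the 8 arrays the members varied together in part, as a description. Pearson's r of log2 levels was 0.93 for Men1 with Mllt1 and 0.87 for Men1 with Mllt10, and -0.69 for Psip1 with Mllt1. Arrays of a clone share their origin and those of a set their clone and number, so these values carry the clone difference. By the same measure the genes most like Men1 were Tiam1 (0.997), Ptprcap (0.993) and Gpr15 (0.990), and 533 of 19937 genes exceeded 0.9. Those most like Dot1l were Lcn15 (0.972), Olfr623 (0.971) and Wdr4 (0.968), among 88 genes over 0.9. Those most like Kmt2a were Snora52 (0.972), Bmerb1 (0.968) and Olfr92 (0.959), among 21 genes over 0.9. With 8 arrays and 19937 genes compared, the top values describe these arrays only.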

How the data were processed

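Expression was measured on 8 Affymetrix arrays, 1 per culture, from labelled cDNA of total RNA. The deposited values are probe-set levels on the log2 scale, for 35556 probe sets. The submitters' processing notes name RMA, which corrects background, normalizes between arrays and summarises probes. Its version and the chip definition were not given in the sources used here. The values, from 2.60 to 13.77, show the log base, and the number of arrays limits the precision.

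The platform annotation gave a single symbol to 21789 probe sets. The 1621 with several symbols were not used, and 12146 were not listed. This left 19938 genes, each by its brightest probe set. Fits used limma 3.58.1 in R 4.3.3, with trended empirical Bayes moderation. Tests were two-sided at 0.05, with p-values adjusted across all genes by the Benjamini-Hochberg method. The set was a block: the design text compares 4 sets, the titles give the numbers, and Runx1Cbfb-KO and Control deviations of a set correlated at 0.72 to 0.82 across genes. These deviations were taken from group means over both clones, so the size of the correlations carries the clone difference. Each Runx1Cbfb-KO array correlated best with the Control array of its own set. SEs are moderated, with 3 residual and 9.72 prior degrees of freedom, and p-values measure the spread between 4 sets of 2 clones. Clone effects had a term per clone, and clones among Control arrays were compared in a fit of the 4 clone-by-group cells without the block. The fit was tested on simulated data.

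The genes, lists and tests were chosen with earlier results of these data known. Named are the 10 genes, Runx1, Cbfb, markers, up to 4 genes past the threshold per wider list or else the one with the smallest p, and the 3 genes most correlated with Kmt2a, Men1 and Dot1l. Alternatives varied the pairing, variance model, array weights, normalization, probe-set choice and low-level filter, and left out each set. Promoter sequences are from RefSeq, build GRCm38.p6.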

Additional observations from a re-analysis of the deposited data

How the results depend on the processing

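Under 15 alternative settings and within the sets of each replicate number, a split added after the data were seen, none of the 10 genes passed. The lowest limma adjusted p was 0.291 for Psip1 in the sets of replicate number 1, and 0.53, also for Psip1, among the 15 settings. Differences of the 10 genes ran from -0.094 to 0.105 in those settings. Signs near 0 turned for Kmt2a (3 settings), Mllt1 (2), Psip1 (1) and Dot1l (1), none of them called, and the cause was not tested. The median over the 10 genes was 0.024 and ran from -0.007 to 0.041 with a set left out, the lowest without clone 1 replicate 1. It was -0.018 in the sets of replicate number 2 and 0.052 in those of number 1. The count over all genes was 190 and fell to 0 with no replicate block (the unpaired fit), 23 with clone in place of the set, 78 with separate terms for clone and number, 13 without the variance trend, 88 with median centring and 0 of 35556 with every probe set tested. It was 388 with array weights and between 98 and 418 with a set left out, the highest without clone 2 replicate 2. Bcl2 and Gas7 lost their calls in 8 and 9 alternatives, in which both stayed lower, and the Runx1 call ended in the unpaired fit (adjusted p = 1), with clone alone (0.0617) and with every probe set tested (0.0567). Clone comparisons gave 0 of 10 genes, and 7 of 14 fusion targets among Control arrays, in the 4 alternatives run for each, those for the targets being added after the data were seen.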
